A study of Ulva lactuca with 7 samples.

Results

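The comparison set thalli that were resubmerged for 1 h after 72 h of drying against thalli that were resubmerged for 1 h after 24 h of drying, and asked how the length of drying bears on the state an hour after the return to seawater. Thalli are the flat blades of the green seaweed Ulva lactuca. They are called the 72 h recovery library and the 24 h recovery library here and are 2 of the 7 libraries of the series, chosen by their treatment labels. Both sets of thalli had been dried at 20% moisture and then returned to autoclaved seawater. The other 5 libraries came from thalli resubmerged for 1 h after 36 h of drying, from thalli dried for 24, 36 or 72 h and not resubmerged, and from control thalli that were always under seawater. The title of the control library starts with 24, as do the titles of the 24 h libraries, and its treatment label was followed. Each condition had 1 library, so no ratio here has a replicate check and no p-value is given. The labels used here name no strain, sex or life phase and do not say how many thalli made up a library. In RNA from whole thalli, fewer cells of a type and less RNA per cell cannot be told apart.

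Ulva grows on the shore between the tide lines, where a blade that is only a pair of cell layers thick loses most of its water when it lies exposed at low tide and takes it up again quickly when the tide returns. Drying concentrates the cell contents, slows photosynthesis and raises oxidative stress, and rewetting demands repair of membranes and proteins. In many plants and algae that survive drying, transcripts for protective proteins accumulate while water is lost or are kept in store for the return of water. The deposited tables do not pair transcripts with gene names, products or sequences, so this background cannot be tied to single transcripts, the labelled states could not be checked against marker genes, and no group by function is described. Transcripts are given by their assembly identifiers, and transcripts that share the gene part of the identifier are called isoforms of 1 assembled gene.

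Of the 137594 transcripts in the expression table, 66046 in 22319 assembled genes averaged 10 counts or more per library and were compared. The total count was 78585833 in the 72 h recovery library and 89178193 in the 24 h recovery library. Among the compared transcripts, 1712 had 0 counts in the 72 h recovery library and 1473 in the 24 h recovery library. Counts were less concentrated after the longer drying, since the 100 most abundant transcripts took 14.6% of the counts in the 72 h recovery library and 19.5% in the 24 h recovery library (exact 95% intervals 14.56 to 14.58% and 19.45 to 19.46%). Intervals cover counting error only, because no molecular identifiers mark copies of a molecule and 1 library does not show the spread between thalli. Reads appear to be counted on several isoforms, so intervals of shares of summed counts are likely too narrow even for counting error.

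Most transcripts stood at like levels in both recovery libraries, and at 4-fold, with the scaling used here, about as many transcripts were higher as lower. Levels are CPM, read counts relative to library size, after scaling of the libraries by trimmed means (TMM), and ratios are differences of log2 CPM with a prior count of 2. The middle 50% of the 66046 log2 ratios of 72 h over 24 h lay between -0.57 and 0.63, and 69.6% of transcripts were within 2-fold. At least 4-fold higher in the 72 h recovery library were 3271 transcripts (4.95% of those compared) in 1770 assembled genes, and at least 4-fold lower were 3228 (4.89%) in 1925 genes. At 16-fold the numbers were 454 higher (0.687%) and 698 lower (1.06%). With 1 transcript per assembled gene, the one with the highest mean count, 1420 of 22319 genes were higher (6.36%) and 1735 lower (7.77%). Scaling by total counts instead raised the median log2 ratio of all transcripts to 0.38, where it was 0.01 with trimmed means. It moved the share of higher among all 4-fold differences to 68.1%, with 4768 higher and 2232 lower, where trimmed means gave 50.3%.

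**Figure D1:**
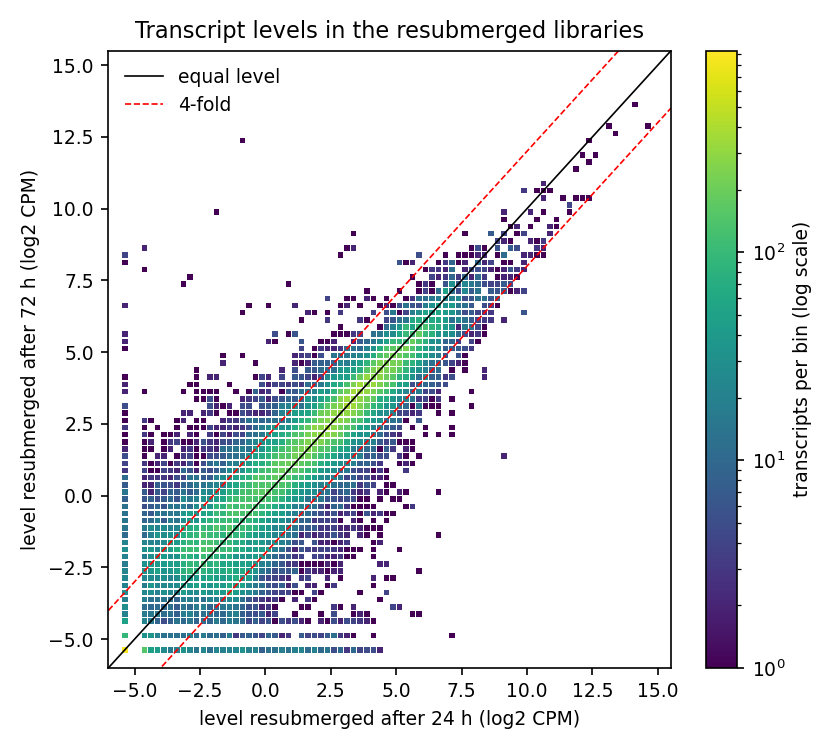
Level of each of the 66046 transcripts in the library resubmerged after 72 h (vertical axis, log2 CPM) and in the library resubmerged after 24 h (horizontal axis, log2 CPM), binned, with colour for the number of transcripts in a bin on a log scale. The solid line marks equal levels and the dashed lines a 4-fold difference, beyond which lie 3271 transcripts above and 3228 below.

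Of the differences past 4-fold, 1691 higher transcripts in 807 genes and 1964 lower transcripts in 982 genes had a 95% counting interval wholly beyond 4-fold. The interval of each of the 3271 and 3228 excluded a ratio of 1, which the threshold and the prior count together make near certain. The calls were most frequent among scarce transcripts. With a mean count of 10 to 30, 8.47% were higher and 8.98% lower, and with a mean of 1000 to 10000, 2.08% were higher and 2.66% lower. The most abundant band had a lean of its own, for among the 814 transcripts with a mean of 10000 counts or more, 2.83% were higher and 8.85% lower, and the median log2 ratio was -0.52. Between the dried libraries, 72 h over 24 h gave this band a median of -0.64, against -0.10 over all transcripts. The transcripts past 4-fold were also shorter than the rest, with a median length of 1183 nt for the higher and 1166 nt for the lower, against 1759 nt for all compared. By length, 6.78% of transcripts under 500 nt were higher and 9.81% lower, and of those of 4000 nt or more 1.81% were higher and 2.06% lower. Short transcripts collect fewer reads, and the part of counting noise in this relation was not tested beyond the intervals above.

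Transcript c33604_g1_i1 (2575 nt, 57.4% GC) had the largest ratio on the higher side among genes with at least 100 counts in both recovery libraries. It had 51481 counts in the 72 h recovery library and 814 in the 24 h recovery library. The other libraries held 5321 counts after resubmergence from 36 h, 320, 2835 and 22078 after 24, 36 and 72 h of drying, and 5535 in the control. Both 72 h libraries were thus the highest of the series and both 24 h libraries the lowest. The 72 h recovery library was 55.3-fold above the 24 h recovery library (95% counting interval 51.6 to 59.3) and 6.92-fold above the control (6.73 to 7.11). In the dried state the 72 h library was 77.4-fold above the 24 h library (69.3 to 86.7). All 9 isoforms of its assembled gene that were compared were at least 4-fold higher. In FPKM, a level per length made by the authors, it stood at 741 in the 72 h recovery library and 9.88 in the 24 h recovery library.

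Transcript c33025_g1_i1 (1648 nt, 48.6% GC) had the most counts among genes with at most 3 counts in the 24 h recovery library. It had 39791 counts in the 72 h recovery library and 1 in the 24 h recovery library, a ratio of 34795 (95% counting interval 6245 to 1374355). The library resubmerged after 36 h held 31991 counts, the dried libraries held 12, 10 and 8 counts after 24, 36 and 72 h, and the control held 38318. This transcript was therefore near absent from the 24 h recovery library and from the dried libraries, and was present at like levels in the other libraries. Between the dried libraries, 72 h over 24 h gave a ratio of 0.748 with a counting interval of 0.265 to 1.99, which holds 1.

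On the lower side, c34582_g1_i3 (5671 nt, 55.3% GC) had the largest difference among genes with at least 100 counts in both recovery libraries. It had 229 counts in the 72 h recovery library and 45946 in the 24 h recovery library. The library resubmerged after 36 h held 167 counts, the libraries dried for 24, 36 and 72 h held 35366, 49770 and 14211, and the control held 263. All libraries that had been returned to water after 36 or 72 h, and the control, were thus low. The 72 h recovery library was 229-fold below the 24 h recovery library (95% counting interval 202 to 262) and 81.4-fold below the library dried for 72 h (71.5 to 93.2). The dried 72 h library was 2.22-fold below the dried 24 h library (2.18 to 2.26). All 4 isoforms of this gene were at least 4-fold lower.

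Transcript c32320_g1_i1 (1375 nt, 52.0% GC) had the most counts among genes with at most 3 counts in the 72 h recovery library. It had 1 count in the 72 h recovery library and 10409 in the 24 h recovery library, which put the 72 h recovery library 11904-fold lower (95% counting interval 2136 to 470213). The library resubmerged after 36 h held 4000 counts, the libraries dried for 24, 36 and 72 h held 16213, 9057 and 4001, and the control held 4. It was near absent from the 72 h recovery library and the control and present in the other 5. All 3 isoforms of its gene were at least 4-fold lower.

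Isoforms of 1 gene mostly stood on the same side. Of 10455 assembled genes with at least 2 compared transcripts, 887 held a transcript that was 4-fold higher (8.48%) and 677 one that was 4-fold lower (6.48%). In 384 of the 887 every compared isoform was 4-fold higher, and in 325 of the 677 every one was 4-fold lower. An isoform with a ratio of the other sign was found in 132 of the 887 and 94 of the 677. Only 9 genes held a transcript past 4-fold in each direction, or 11 with scaling by total counts. Among the 11864 genes with 1 compared transcript, 7.44% were higher and 10.5% lower. Isoforms may share reads, so that like ratios within a gene are not independent.

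Median levels of the higher and lower transcripts over all 7 libraries show where the other libraries stood. These 5 libraries took no part in the choice beyond the count filter and the scaling. The 3271 higher transcripts had a median of 1.28 CPM in the 72 h recovery library and 0.135 CPM in the 24 h recovery library. Their median was 1.01 CPM after resubmergence from 36 h, 0.214, 0.455 and 1.06 CPM after 24, 36 and 72 h of drying, and 0.607 CPM in the control. The library dried for 72 h thus lay near the upper level and the one dried for 24 h near the lower. The 3228 lower transcripts had a median of 0.140 CPM in the 72 h recovery library and 1.89 CPM in the 24 h recovery library. Theirs was 0.861 CPM after resubmergence from 36 h, 1.54, 0.811 and 0.790 CPM after 24, 36 and 72 h of drying, and 0.217 CPM in the control. On this side the control was the library next to the low level.

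**Figure D2:**
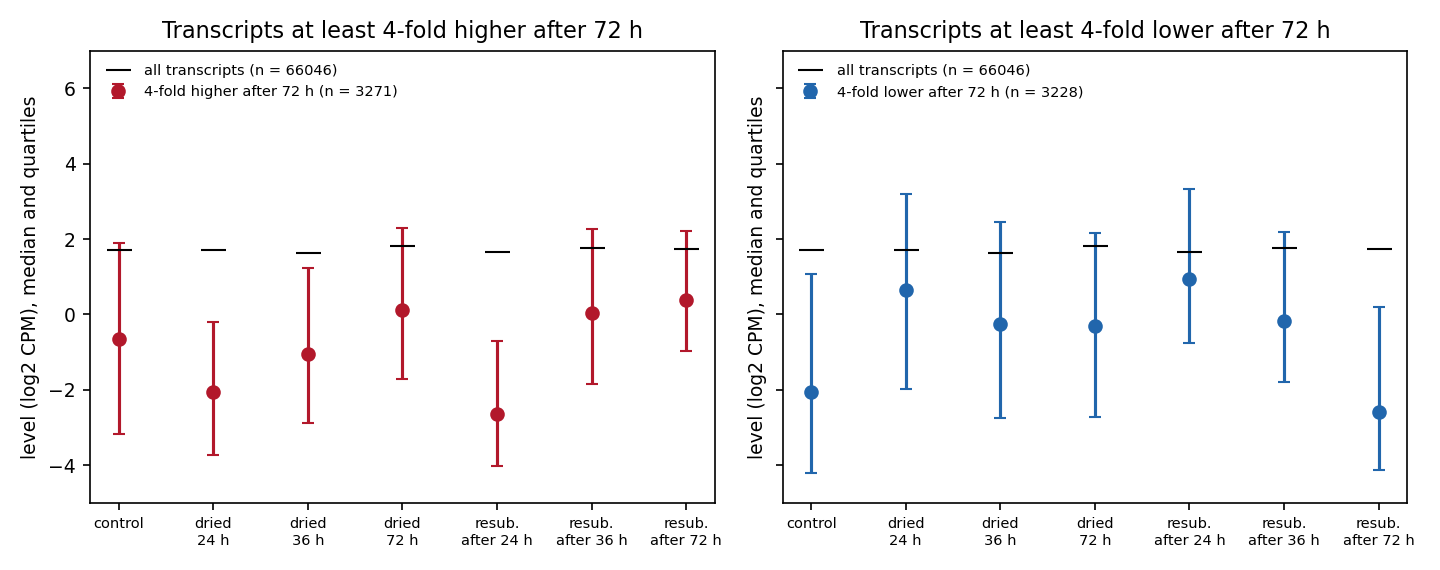
Median level with quartiles (log2 CPM with a prior count of 2) in each of the 7 libraries for the 3271 transcripts at least 4-fold higher (left) and the 3228 at least 4-fold lower (right) after resubmergence from 72 h than from 24 h, with the median of all 66046 transcripts as black dashes. The lower transcripts stand low in the control as well, and the higher ones stand low in the library dried for 24 h.

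Together the higher transcripts took 3.89% of the counts of the 72 h recovery library and 0.263% of the 24 h recovery library. They took 3.86% after resubmergence from 36 h, 0.351, 1.62 and 3.51% after 24, 36 and 72 h of drying, and 3.61% in the control. The lower transcripts took 1.48% of the counts of the 72 h recovery library and 6.89% of the 24 h recovery library. Their share was 2.44% after resubmergence from 36 h, 6.34, 4.01 and 2.86% after 24, 36 and 72 h of drying, and 2.07% in the control. By share of counts the control therefore stood on the side of the 72 h recovery library for both lists.

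Counted transcript by transcript, the control was nearer in log2 CPM to the 72 h recovery library than to the 24 h recovery library for 77.7% of the lower transcripts and for 55.5% of the higher ones. Over all compared transcripts the share was 58.7%. With 1 transcript per gene the share among the lower ones was 77.2%, and among the higher ones it was 45.4%, against 55.2% over all genes. On the higher side the share thus lay below that over all in both units counted. The library dried for 24 h was nearer to the 72 h recovery library for 22.9% of the higher and 30.5% of the lower transcripts, against 47.3% of all. The library dried for 72 h was so for 75.3% of the higher and 59.5% of the lower transcripts, against 64.7% of all. With scaling by total counts the 59.5% became 48.3%. With 1 transcript per gene the library dried for 24 h was nearer to the 72 h recovery library for 23.5% of the higher and 41.3% of the lower. Over all genes this was 45.4%. For the library dried for 72 h these shares were 66.5% and 66.3%, against 61.2% over all genes. On the lower side its share thus lay below that over all by transcript and above it by gene.

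Set against the control, 54.4% of the lower transcripts were within 2-fold of it in the 72 h recovery library and 13.1% in the 24 h recovery library. A level 4-fold or more above the control was found for 3.44% of them in the 72 h recovery library and 67.1% in the 24 h recovery library. In the 72 h recovery library 14.7% of them were at least 4-fold below the control, against 3.29% of all transcripts. The higher transcripts gave a mixed picture, with 32.3% within 2-fold of the control in the 72 h recovery library and 28.2% in the 24 h recovery library. Of these, 36.5% were at least 4-fold above the control in the 72 h recovery library, and 46.3% were at least 4-fold below it in the 24 h recovery library. Over all transcripts, 63.9% were within 2-fold of the control in the 72 h recovery library and 54.6% in the 24 h recovery library. Levels 4-fold or more above the control made up 8.66% of all in the 72 h recovery library and 11.8% in the 24 h recovery library, and levels as far below it 6.73% in the 24 h recovery library. Both comparisons share the 1 control library.

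The library resubmerged after 36 h lay between the 72 h and the 24 h recovery libraries in 1746 of the 3271 higher transcripts (53.4%). It did so in 1829 of the 3228 lower ones (56.7%) and in 30.6% of all transcripts. The lists were chosen for a gap of at least 4-fold, and a wider gap leaves more room for a library to lie between. Among the 45935 transcripts within 2-fold between the 72 h and 24 h recovery libraries the share was 23.8%. The share over all transcripts therefore cannot show whether the 36 h recovery library lay between more often than the choice itself gives. The 36 h recovery library stood above both in 1282 higher and 817 lower transcripts and below both in 243 higher and 582 lower ones. For the higher transcripts the 36 h recovery library was nearer to 72 h in 74.6%, against 36341 of all 66046 transcripts, and for the lower ones it was nearer to 24 h in 56.5%, against 28772 (43.6%) of all. Among pairs of recovery libraries, 36 h over 24 h had 5130 transcripts at least 4-fold higher (7.77%) and 3565 lower (5.4%), and 72 h over 36 h had 2334 higher (3.53%) and 4155 lower (6.29%). Of the 3 recovery libraries, the 36 h and 24 h ones had the most transcripts past 4-fold between them.

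The same contrast of 72 h over 24 h in the dried libraries shares no library with the recovery contrast. There 6811 transcripts passed 4-fold on the higher side (10.3%) and 3457 on the lower (5.23%). Of the 3271 transcripts higher after resubmergence, 1611 were also at least 4-fold higher in the dried state, which is 49.3% of the one list and 23.7% of the other. Of the 3228 lower after resubmergence, 873 were also at least 4-fold lower in the dried state, which is 27.0% of the one list and 25.3% of the other. With 1 transcript per gene the shares of the recovery lists were 43.0% and 25.6%, against 12.5% and 7.66% of all genes. Relative to the median of all transcripts, the median dried log2 ratio stood at 2.07 for the higher and at -0.90 for the lower transcripts. The dried list holds 1342 transcripts found mainly in the library dried for 72 h. This set was defined after the data were seen, by at least 50 counts there and at least 20 times the share of any other library. Of these 1342, 68 were in the higher and 27 in the lower recovery list. Without the 1342, 48.2% of the higher transcripts were also higher when dried, against 8.45% of all, and 27.3% of the lower ones were also lower when dried, against 5.34% of all.

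Across all 66046 transcripts, the dried and the recovery log2 ratios had a Pearson r of 0.36 and a Spearman rho of 0.39, and across the 36430 transcripts with at least 100 counts in the 4 libraries 0.48 and 0.41. These correlations are across transcripts, which share libraries, depth and reads and are not independent replicates.

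**Figure D3:**
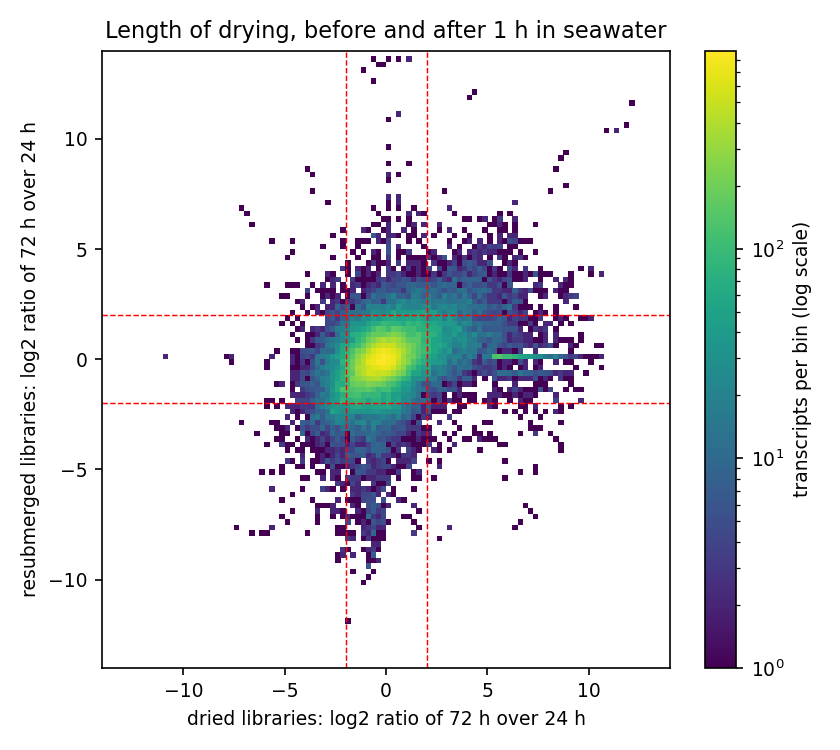
Log2 ratio of 72 h over 24 h of drying in the libraries resubmerged for 1 h (vertical axis) and in the dried libraries (horizontal axis) for 66046 transcripts, binned, with colour for the number in a bin on a log scale and dashed lines at a 4-fold difference. The upper right corner holds 1611 transcripts and the lower left corner 873. The streak at the right near a recovery ratio of 0 holds transcripts found mainly in the library dried for 72 h, 1131 of which were within 2-fold between the recovery libraries.

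The transcripts past 4-fold fell into sets by what the dried libraries showed. The 1611 that were higher in both states had a median of 1.61 CPM in the 72 h recovery library and 0.148 CPM in the 24 h recovery library, and of 2.78 CPM in the library dried for 72 h and 0.101 CPM in that dried for 24 h. The 873 that were lower in both states had a median of 0.419 CPM in the 72 h recovery library and 4.98 CPM in the 24 h recovery library, and of 0.734 CPM in the library dried for 72 h and 5.26 CPM in that dried for 24 h. A difference in both states is what defines these sets. Its median log2 size was 2.87 after resubmergence and 3.77 in the dried state for the 1611, and -2.70 and -2.67 for the 873.

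A second set differed after resubmergence while the dried libraries were within 2-fold of each other. It held 859 of the higher transcripts (26.3%) in 603 genes and 1342 of the lower ones (41.6%) in 868 genes, where 60.4% of all transcripts were within 2-fold between the dried libraries. These 1342 share no transcript with the equally large set found mainly in the library dried for 72 h. They had a median of 0.108 CPM in the 72 h recovery library and 1.38 CPM in the 24 h recovery library. Their median was 0.918 CPM after resubmergence from 36 h, 0.679, 0.516 and 0.593 CPM after 24, 36 and 72 h of drying, and 0.0868 CPM in the control. The control was nearer to the 72 h recovery library in 86.0% of them, and in 86.9% of the 753 counted with 1 transcript per gene. In these transcripts the 72 h recovery library stood near the control, and the 24 h and 36 h recovery libraries stood above the dried libraries by their medians. Both low libraries held few counts, with medians of 10 in the 72 h recovery library and 6 in the control. At most 3 counts were found for 29.3% and 38.5% of the 1342 there, which limits what their nearness shows. The 859 higher ones had a median of 1.04 CPM in the 72 h recovery library and 0.123 CPM in the 24 h recovery library, with 0.551 CPM after resubmergence from 36 h, 0.327, 0.307 and 0.339 CPM after 24, 36 and 72 h of drying, and 0.477 CPM in the control. Here the 72 h recovery library was above and the 24 h recovery library below the other 5. The control was nearer to the 72 h recovery library in 53.2% of the 859, against 58.7% of all transcripts. With 1 transcript per gene this was 43.3%, against 55.2% of all genes. The choice by the gap between the 72 h and 24 h recovery libraries itself favours outer places for them. This holds for the 859 and for the high 24 h recovery level of the 1342.

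A median GC content of 52.7% in the 859 and of 59.4% in the 1342 went with this set, against 56.8% over all transcripts. The 1611 higher in both states had a median of 59.1% and the 873 lower in both states one of 56.1%.

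Some transcripts were abundant in one recovery library and all but missing from the other. At least 100 counts in the 72 h recovery library and at most 3 in the 24 h recovery library were found for 126 transcripts (0.191%) in 87 genes. The reverse was found for 296 transcripts (0.448%) in 106 genes. With only the main transcript of each gene these were 71 and 76 of 22319, so the numbers were more alike when counted in that way. A count of 3 corresponds to 0.0323 CPM in the 72 h recovery library and 0.0369 CPM in the 24 h recovery library.

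The 296 transcripts missing from the 72 h recovery library were missing from the control as well in most cases. At most 3 counts in the control were found for 259 of them in 81 genes (87.5%), and at least 100 counts there for 8. In the dried libraries 266, 249 and 231 of them had at least 100 counts after 24, 36 and 72 h, and 232 had so after resubmergence from 36 h. Of all compared transcripts, 8.02% had at most 3 counts in the control and 61.3% had at least 100 there, and the shares with at least 100 counts were 64.0, 63.5 and 65.9% after 24, 36 and 72 h of drying and 67.5% after resubmergence from 36 h. The pattern with at most 3 counts in the control and at least 100 in each of the 3 dried libraries and in the 36 h recovery library covered 195 transcripts in 50 genes. Where present they were moderate in level, with a median of 301.5 counts in the 24 h recovery library, and the 36 h recovery library held a median of 0.799 of that level in CPM. Their median GC content was 49.99% and their median length 1758 nt, against 56.8% and 1759 nt over all.

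The 126 transcripts missing from the 24 h recovery library were more varied. At least 100 counts in the control were found for 47 of them in 30 genes, and at most 3 for 48 in 34 genes. In the dried libraries 10, 10 and 31 of them had at least 100 counts after 24, 36 and 72 h, while 70 had so after resubmergence from 36 h. In each of these libraries the share with at least 100 counts was smaller among the 126 than among all transcripts, and the share with at most 3 counts in the control was larger. At least 100 counts in the control and at most 15 in each of the dried libraries were found for 27 transcripts in 18 genes, a set to which c33025_g1_i1 belongs. At most 3 counts in each of the other 6 libraries were found for 10 transcripts in 9 genes, against 1 transcript found in the 24 h recovery library alone.

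**Figure D4:**
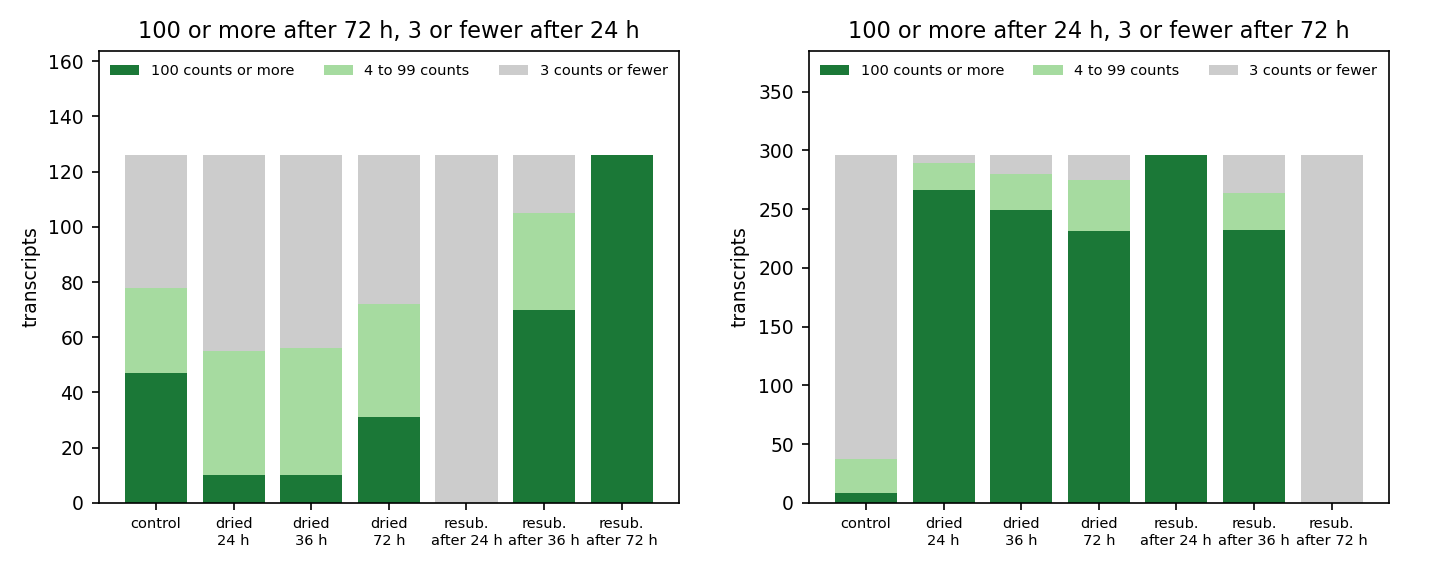
Number of transcripts with at least 100, 4 to 99 and at most 3 counts in each of the 7 libraries, for the 126 transcripts missing from the library resubmerged after 24 h (left) and the 296 missing from the library resubmerged after 72 h (right). Of the 296, the control lacks 259, while each dried library holds at least 231 at 100 counts or more.

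The ratio between the recovery libraries also went with the GC content of the transcript, a relation examined with earlier results of these data known. Transcripts of 45 to 50% GC had a median log2 ratio of 0.43 (n = 6573) and those of 50 to 55% one of 0.22 (n = 19130). Those of 60 to 65% had a median of -0.19 (n = 14792) and those of 65% or more one of -0.35 (n = 7692), or -0.62 with 1 transcript per gene (n = 2614). Relative to the median of all transcripts, the band of 45 to 50% stood 0.42 above and the band of 65% or more stood at -0.36. Transcripts below 45% GC did not follow this order, with a median of 0.00 both under 40% (n = 427) and at 40 to 45% (n = 1393). Without the transcripts found mainly in the library dried for 72 h, these medians were -0.37 (n = 293) and 0.43 (n = 699). Of the transcripts of 65% GC or more, 3.68% were at least 4-fold higher and 7.28% lower, and with 1 transcript per gene 4.71% were higher and 15.3% lower. Among the 427 transcripts under 40% GC, 6.79% were higher and 12.6% lower.

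Over all transcripts the log2 ratio changed by -0.26 per 10 points of GC, and by -0.26 with 1 transcript per gene. Without the transcripts found mainly in the library dried for 72 h it was -0.29. In the dried libraries the same contrast had a slope of 0.51 without that set and of 0.11 with it, or 0.016 with it and 1 transcript per gene. With 1 transcript per gene and without that set the slopes were -0.30 between the recovery libraries and 0.57 between the dried libraries. The slope was -0.35 for 72 h over 36 h and 0.09 for 36 h over 24 h among the recovery libraries, so the negative slope lay in the step to the 72 h recovery library. Slopes are descriptions across transcripts of single libraries, and whether library preparation contributes was not tested. With a smooth trend on GC content removed from the ratios, 3203 transcripts passed 4-fold on the higher side and 2959 on the lower.

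**Figure D5:**
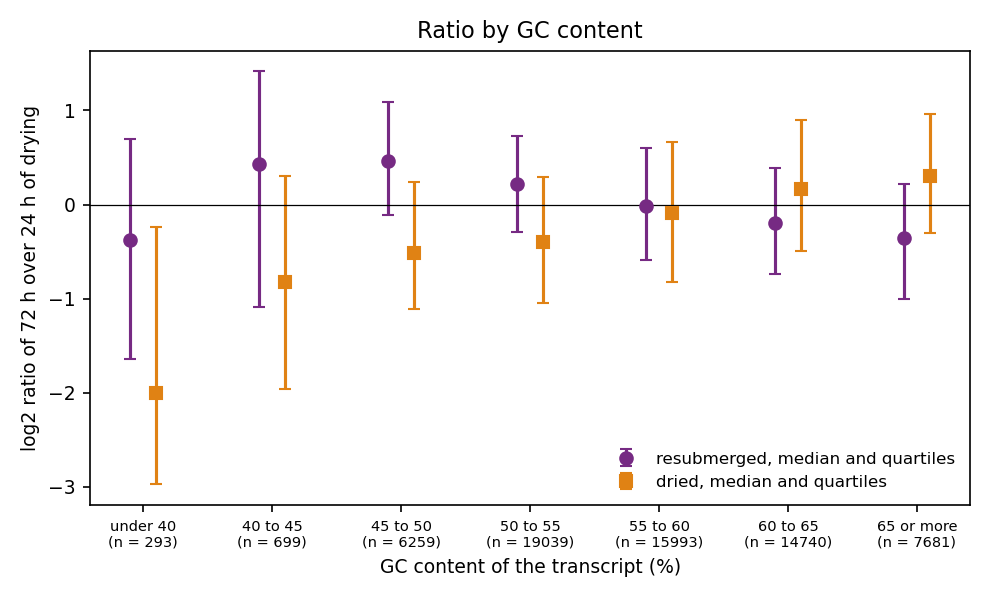
Median log2 ratio of 72 h over 24 h of drying with quartiles by GC content of the transcript (percent), for the libraries resubmerged for 1 h (circles) and the dried libraries (squares), without the transcripts found mainly in the library dried for 72 h. From 45% GC upward the medians go down from 0.46 to -0.35 in the recovery libraries and up from -0.51 to 0.30 in the dried libraries.

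Among the 100 genes of highest mean level, each by its main transcript, 4 were at least 4-fold higher and 9 at least 4-fold lower in the 72 h recovery library, and 53 were within 2-fold. Over the 22319 genes 6.36% were higher and 7.77% lower, so the 4 and 9 of 100 lay near those shares. The median log2 ratio of the 100 was -0.70, against 0.00 over the 22319 genes. Among the 1000 genes of highest mean level, 33 were higher and 50 lower, 700 were within 2-fold, and the median was -0.30. By these medians, not by the counts past 4-fold, the most abundant transcripts were lower relative to the rest in the 72 h recovery library. The smaller share of its 100 most abundant transcripts shows this too.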

How the data were processed

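The treatment labels gave the groups. Cutadapt, Bowtie2 and DESeq appear, with no version or role, in the submitters' processing notes. The sources used here do not name the programs that assembled the transcripts and counted reads. Per the file headers, the authors' expression table holds read counts and FPKM values per transcript and library, together with transcript length, base composition and GC content in percent. The deposited counts were used unchanged. They sum to 2.91 and 2.79 times the library totals that the deposited FPKM values imply in the 72 h and 24 h recovery libraries, so reads appear to be counted on several isoforms. FPKM served for this check and for 2 levels. The authors' pairwise tables hold no comparison of these libraries and were not used.

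Counts of the transcripts that averaged 10 or more over 7 libraries were scaled by TMM in edgeR 4.0.16 under R 4.3.3. Scaling multiplied the library totals by 1.19 and 0.913 in the 72 h and 24 h recovery libraries. Log2 CPM had a prior count of 2, and 4-fold was the threshold. Intervals of count ratios and of shares of library counts are exact (Clopper-Pearson, 95%), take each count as a separate read and cover counting error only. Alternatives used total counts, DESeq2 1.42.0 size factors, other filters and prior counts, 1 transcript or the summed counts per assembled gene, and a GC trend. Named transcripts were, on each side and with 1 transcript per gene, the largest ratio with at least 100 counts in both recovery libraries, and the highest count where the other library had at most 3. The comparison, the lists and this rule were chosen with earlier results of these data known.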

Additional observations from a re-analysis of the deposited data

Results flagged for a closer look

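The contrast of 72 h over 24 h of drying had GC slopes of opposite sign after resubmergence and in the dried state, and the size of the dried slope depended on which transcripts were counted. Without the transcripts found mainly in the library dried for 72 h, the log2 ratio had a slope of -0.29 per 10 points of GC between the recovery libraries and of 0.51 between the dried libraries. With all transcripts the slopes were -0.26 and 0.11, and with 1 transcript per gene -0.26 and 0.016. The set left out is defined by the counts of the library dried for 72 h itself. Each slope rests on 1 library a side, and the difference was not tested.

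Some transcripts reversed between the states. Of the transcripts at least 4-fold higher in the 72 h than in the 24 h recovery library, 116 in 77 genes were at least 4-fold lower in the library dried for 72 h than in that dried for 24 h. They had a median of 0.914 CPM in the 72 h recovery library and 0.0738 CPM in the 24 h recovery library, and of 0.0988 CPM in the library dried for 72 h and 1.27 CPM in that dried for 24 h. In the other direction 119 in 82 genes were lower in the 72 h recovery library and higher when dried for 72 h, and 27 of these belong to the set found mainly in the library dried for 72 h. They had a median of 0.0108 CPM in the 72 h recovery library and 0.553 CPM in the 24 h recovery library, and of 3.84 CPM in the library dried for 72 h and 0.0629 CPM in that dried for 24 h. The 116 are 3.55% of the higher list, where 5.23% of all transcripts were that much lower when dried. The 119 are 3.69% of the lower list, where 10.3% of all were that much higher when dried. Both shares were thus below those over all transcripts. The medians given are of the libraries that define the sets, and the reversals were not tested.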

How the results depend on the processing

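No paired analysis was possible because each condition has 1 library and the libraries carry no replicate numbers. Without the count filter 5393 transcripts passed 4-fold on the higher side and 4876 on the lower, and with a mean count of 100 there were 1580 and 1489. With 1 transcript per gene 1420 were higher and 1735 lower, and with counts summed per gene 1578 and 1599. These alternatives change how many units are counted. Of the transcripts missing from 1 recovery library, in the order missing after 24 h and missing after 72 h, a mean count of 100 left 65 and 244, 1 transcript per gene 71 and 76, sums per gene 70 and 69, and a limit of 50 counts 265 and 419. DESeq2 size factors gave 3119 higher and 3380 lower, a prior count of 0.5 gave 3849 and 3760, TMM on both libraries alone 3306 and 3306, and a filter on both libraries alone, chosen after seeing the data, 3553 and 3466. None of the log2 ratios and slopes among 91 other recomputed values changed sign, and shares, lengths and GC contents cannot do so. Some shares of transcripts nearer to the 72 h recovery library changed sides. For the control and the higher transcripts it went from 55.5% to 45.4% with 1 transcript per gene. For the library dried for 36 h it went from 52.4% to 44.9% with 1 transcript per gene and 48.9% with total counts. Among the lower transcripts that library went from 49.7% to 57.6% with 1 transcript per gene and 50.6% with DESeq2 size factors. The library dried for 72 h went from 59.5% to 48.3% there with total counts. Of the 91 values 57 stayed within a limit and 34 did not. The limit was the 95% interval for shares, medians and named transcripts, and 1.5 times for slopes and counts. Without replicates, depth limits only the counting error, and nothing here measures the spread between thalli.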
